A study of Mus musculus with 24 samples.

Results

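Clotting and fibrinolysis depend on proteins that the liver secretes into blood, and 10 of their genes are described here: Fga, Fgb, Fgg, F2, F7, F10, F12, Serpinc1, Proc and Plg. They were chosen by name as members of this pathway, out of 24963 curated RefSeq genes on mouse autosomes. DNA methylation was read in tiles of 100 bp, and a tile belonged to a member when its midpoint lay in the 5000 bp before the transcription start (upstream) or between the start and the end of the gene (body). By this rule 184 tiles fell in the 10 genes, of which 156 were in the liver table, 172 in the brain table and 173 in the heart table. The 145 member tiles present in all 3 tables, out of 758685 such tiles genome-wide, carry the comparisons. Of these, 22 were upstream and 125 were in bodies, and 2 tiles at the end of F7 counted both in its body and in the window upstream of F10.

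The libraries were made by enhanced reduced representation bisulphite sequencing (eRRBS), which cuts DNA with restriction enzymes, converts unmethylated cytosines and reads the CpGs near the cut sites. The mice were C57Bl/6J, an inbred strain, and 24 weeks old. Liver had 12 libraries (6 male, 6 female), brain had 6 (3 male, 3 female) and heart had 6 (3 male, 3 female). The brain DNA came from a coronal slice of the rostral end, the heart DNA from the apex and the liver DNA from part of the left lobe. The columns of the tables name the tissue but neither the mouse nor its gender, so males and females were pooled in each tissue. The gender counts are those of the labels, in which 2 mouse numbers carry opposite genders between liver and the other tissues. In such bulk tissue, a different share of cells of a type and a different methylation level within that type cannot be told apart.

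Coagulation is a cascade of secreted serine proteases that ends with thrombin cutting fibrinogen to fibrin, which forms the clot. Antithrombin and activated protein C hold the cascade in check, and plasmin, made from plasminogen, dissolves the clot. Hepatocytes are the main source of all these zymogens, inhibitors and fibrinogen chains, while brain and heart make little of them. Low CpG methylation near the start of a gene is often found in the tissue that uses it. Expression was not measured in these libraries, so a link between level and use was not tested.

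The sequences below are those in which the tissue contrast is described first. They were read from RefSeq GRCm38.p6, which is mm10, and are written 5′ to 3′ on the strand of the gene. Each CpG, a C followed by a G, is in capitals where it lies whole within the printed stretch. The tile of each gene is its body tile with the largest distance between liver and the mean of brain and heart. The promoter stretches of F7 and Fgb are the 250 bases before the start, shown because tiles next to those starts were read.
Fgg, tile at chr3:83012901-83013000 (+): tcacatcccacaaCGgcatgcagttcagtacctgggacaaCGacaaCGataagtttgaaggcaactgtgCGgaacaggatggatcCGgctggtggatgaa
Fga, tile at chr3:83031201-83031300 (+): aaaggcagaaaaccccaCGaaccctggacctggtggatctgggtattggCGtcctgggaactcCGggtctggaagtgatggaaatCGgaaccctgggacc
Fgb, tile at chr3:83049601-83049700 (-): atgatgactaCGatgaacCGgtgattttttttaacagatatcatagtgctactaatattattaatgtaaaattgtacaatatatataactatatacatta
F2, tile at chr2:91635401-91635500 (-): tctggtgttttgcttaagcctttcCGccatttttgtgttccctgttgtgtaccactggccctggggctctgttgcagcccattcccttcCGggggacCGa
F10, tile at chr8:13039501-13039600 (+): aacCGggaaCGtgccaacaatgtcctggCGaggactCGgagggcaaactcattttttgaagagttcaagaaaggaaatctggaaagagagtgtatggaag
F12, tile at chr13:55421201-55421300 (-): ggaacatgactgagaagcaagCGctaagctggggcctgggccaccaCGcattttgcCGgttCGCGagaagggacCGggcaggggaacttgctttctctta
Serpinc1, tile at chr1:160980801-160980900 (+): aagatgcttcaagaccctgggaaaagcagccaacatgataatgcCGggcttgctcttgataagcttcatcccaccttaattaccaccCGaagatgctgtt
F7, promoter at chr8:13025784-13026033 (+): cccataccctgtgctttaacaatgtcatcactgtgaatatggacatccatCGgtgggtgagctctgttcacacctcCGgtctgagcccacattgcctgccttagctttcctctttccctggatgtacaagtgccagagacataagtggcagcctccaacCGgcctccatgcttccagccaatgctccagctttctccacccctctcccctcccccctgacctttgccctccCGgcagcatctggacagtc
Fgb, promoter at chr3:83049864-83050113 (-): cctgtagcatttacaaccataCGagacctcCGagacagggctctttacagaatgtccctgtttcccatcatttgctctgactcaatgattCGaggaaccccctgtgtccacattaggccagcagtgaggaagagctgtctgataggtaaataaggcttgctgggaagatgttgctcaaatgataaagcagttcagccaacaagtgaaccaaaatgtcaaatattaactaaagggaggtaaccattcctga

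Levels are percentages of methylated CpG calls per tile, computed from the deposited fractions. Over all shared tiles the mean level reached 65.3% in liver, 65.2% in brain and 59.8% in heart, and the libraries of a tissue spanned 64.8% to 66.1%, 63.7% to 66.4% and 59.6% to 60.3%, respectively. The read depth behind a level is unknown, since the tables hold no counts. Tissue labels were checked on genes used by 1 tissue: with tiles in all tables, 3 of 3 liver genes, 3 of 4 brain genes and 3 of 4 heart genes had their lowest body level in their own tissue, and 2 of 3, 2 of 3 and 2 of 2 had their lowest upstream level there. The exceptions were the regions upstream of Alb and Mbp and the bodies of Gfap and Nppa. This check ranks tissues only, and the brain genes passed it by small margins. Their bodies were at 58.8% in brain and 59.3% in heart (Mbp), 62.9% and 65.7% (Mobp) and 48.9% and 53.8% (Snap25). Upstream, Mobp had 83.7% in brain and 85.8% in liver, and Snap25 had 2.11% in brain and 2.55% in heart.

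Over the 145 member tiles the picture was different from the genome-wide one. The mean level over these tiles ran from 51.5% to 54.2% in the 12 liver libraries, from 73.7% to 77.3% in the 6 brain libraries and from 69.4% to 70.6% in the 6 heart libraries, so that liver did not overlap the other tissues. A tile or region was called different when limma, fitted across all tiles or all genes, gave a Benjamini-Hochberg adjusted p of at most 0.01 and the means differed by at least 25 percentage points. By this rule, 65 of the 145 member tiles had lower methylation in liver than in brain, against 4.76% of all tiles, and 60 had lower methylation in liver than in heart, against 2.87% of all tiles. The same 60 tiles passed both tests, which is 41.4% of the member tiles, against 2.46% of all tiles. Both comparisons use the same liver libraries and are therefore not independent of each other. In 62 member tiles each liver library lay below each brain and heart library, a pattern found in 3.06% of all tiles.

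Taken apart, 11 of the 22 upstream tiles were lower in liver than in brain (3.99% of tiles in the upstream windows of all genes) and 10 were lower than in heart (2.67%), these 10 being lower than in both (2.23%). Each liver library lay below each other library in 11 upstream tiles (3.05%). Of the 125 body tiles, 54 were lower in liver than in brain (5.03% of tiles in the bodies of all genes), 50 were lower than in heart (3.35%), the same 50 were lower than in both (2.83%), and in 51 each liver library lay lowest (3.47%). Lower methylation in liver was thus called upstream of the starts and within the genes alike.

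Tiles with higher methylation in liver were fewer, at 5 of 145 against brain (5.04% of all tiles) and 13 of 145 against heart (7.94% of all tiles). The 5 tiles passed both tests and lay in F12 (4 tiles) and Proc (1 tile). All 5, and the 13, were body tiles, where 6.01% of tiles of all genes were higher than in brain, 8.67% higher than in heart and 2.51% higher than in both. No upstream tile was higher in liver, against 3.04% over brain, 5.09% over heart and 1.39% over both in all genes. With so few upstream tiles, a count of 0 is near these shares. The median difference over member tiles was -13.8 percentage points for liver minus brain and -9.16 for liver minus heart, while over all tiles these medians were 0.28 and 3.5 percentage points.

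**Figure D1:**
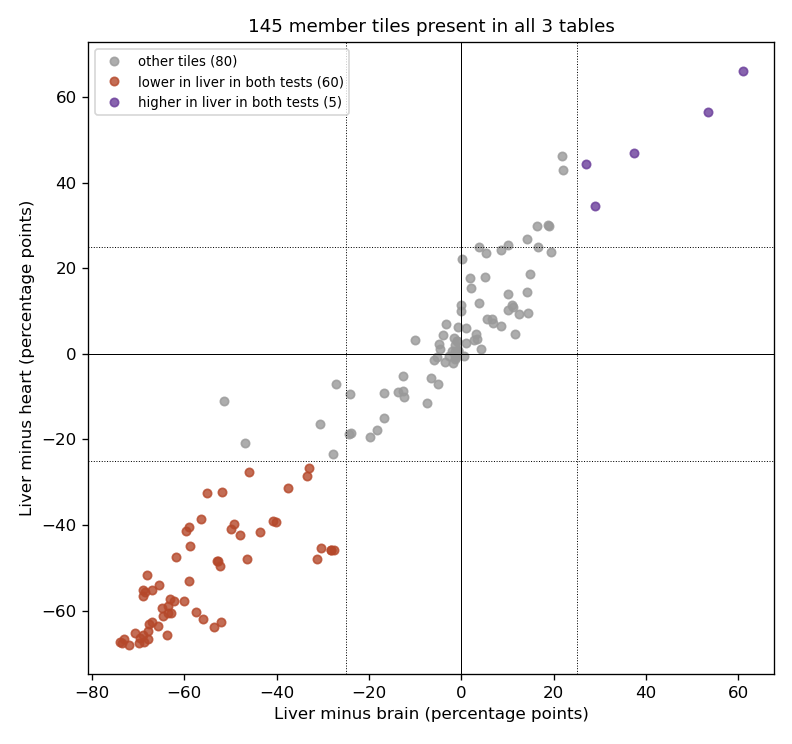
Liver minus brain (horizontal axis) and liver minus heart (vertical axis) in percentage points for the 145 member tiles present in all 3 tables, 1 point per tile, with dotted lines at the minimum of 25 points. The 60 tiles lower in liver in both tests form a group at the lower left, and the 5 tiles higher in liver in both tests lie at the upper right.

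By region, 4 of the 7 members with upstream tiles had a lower mean upstream level in liver than in brain (2.39% of all genes), and 3 of 7 were lower than in heart (1.51% of all genes). Of the 10 bodies, 5 were lower in liver than in brain (1.37% of all genes), and the same 5, those of Fga, Fgb, Fgg, F2 and Serpinc1, were lower than in heart (0.813% of all genes). No member region was higher in liver by this rule in either comparison, against 1.23% of upstream windows and 0.729% of bodies over brain and 2.58% and 1.47% over heart. Serpinc1 and Proc had upstream tiles in the brain and heart tables only, and Plg had none in any table.

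**Figure D2:**
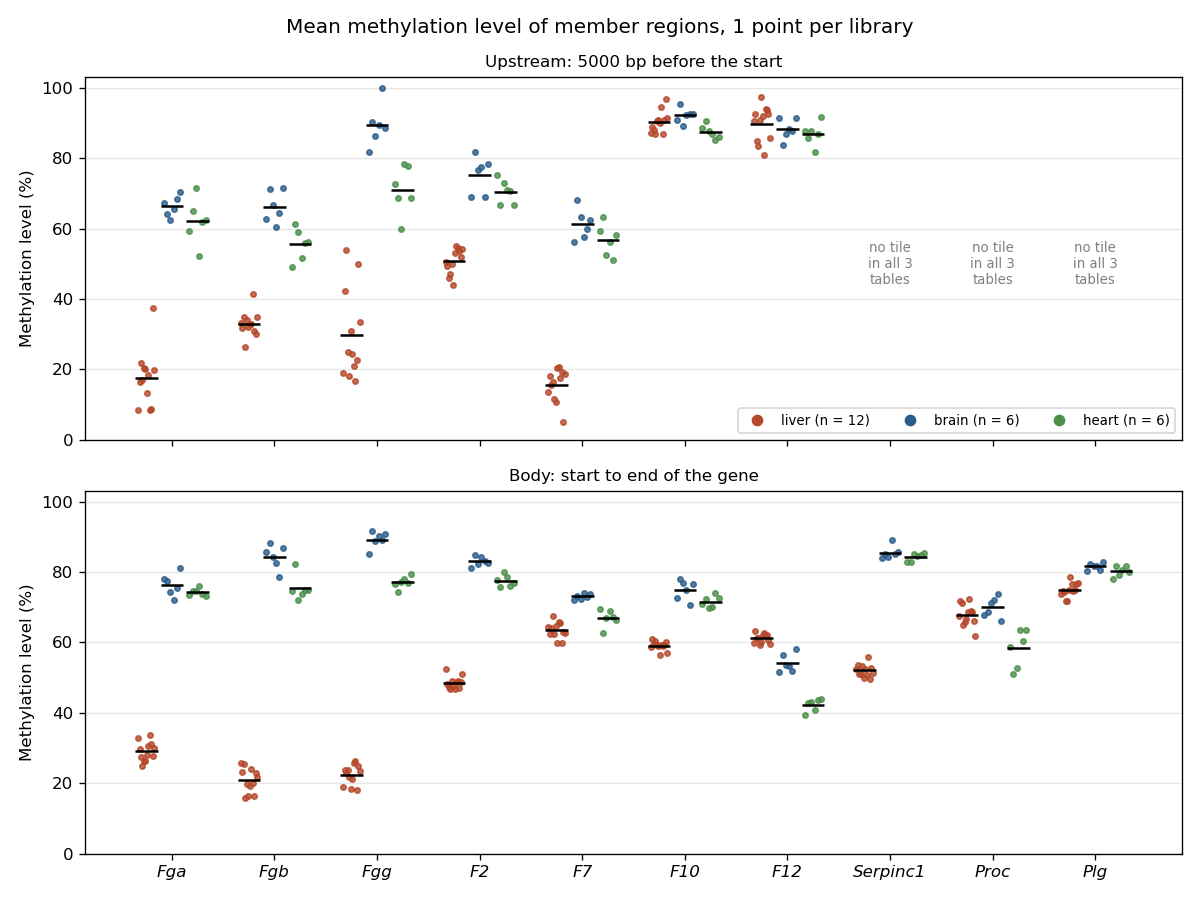
Mean methylation level in percent of the upstream tiles (top) and body tiles (bottom) of each member, 1 point per library and a black bar at the tissue mean, for 12 liver, 6 brain and 6 heart libraries. Liver points lie far below the others for the fibrinogen genes, F2 and the body of Serpinc1, whereas the tissues lie close together upstream of F10 and F12 and in the body of Plg.

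The 3 fibrinogen genes had the lowest liver levels along the greatest part of their length. Fga, Fgb and Fgg encode the alpha, beta and gamma chains of fibrinogen, the soluble precursor of the clot, and are neighbours on chromosome 3, with Fgg at 83007724 to 83015056, Fga at 83026153 to 83033627 (both plus strand) and Fgb at 83042246 to 83049863 (minus strand). Lower methylation in liver than in both other tissues was called in 12 of 14 tiles of Fga, 8 of 10 of Fgb and 7 of 7 of Fgg.

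In the body of Fgg, the level over 6 tiles ran from 18.1% to 26.4% in liver (median 23.2%), from 85.03% to 91.6% in brain (median 89.7%) and from 74.3% to 79.4% in heart (median 77.0%). No liver library came near a library of another tissue. Liver minus brain was -66.8 percentage points (SE 1.20, adjusted p = 1.7e-22), and liver minus heart was -54.7 (SE 1.20, adjusted p = 7.2e-21). The tile printed above for Fgg, 5226 bp after the start and touching a coding exon, ran from 14.8% to 27.5% in liver (median 20.2%), from 88.3% to 98.0% in brain (median 95.4%) and from 83.9% to 93.8% in heart (median 88.2%). Upstream of Fgg only 1 tile was in all tables, 2973 bp before the start. This tile held a single CpG, and all of its 100 bases were soft-masked repeat. It was more variable in liver, from 16.7% to 53.8% (mean 29.7% ± 12.7 SD, n = 12), yet still below the lowest brain library at 81.7% and the lowest heart library at 60.0%.

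The body of Fgb, over 6 tiles, ran from 15.9% to 25.6% in liver (median 20.9%), from 78.5% to 88.2% in brain (median 84.9%) and from 72.0% to 82.2% in heart (median 74.6%). Again the liver libraries formed a group of their own. Liver minus brain was -63.4 percentage points (SE 1.67, adjusted p = 6.8e-20) and liver minus heart was -54.5 (SE 1.67, adjusted p = 1.3e-18). Low liver methylation continued across the start of Fgb, where the tile 187 bp before it, which overlaps the promoter stretch printed above, had means of 15.2% in liver, 70.3% in brain and 47.7% in heart. At the far end of the window, the tile 4887 bp before the start had 72.7% in liver, 68.9% in brain and 60.9% in heart, and neither difference was called. The mean over all 4 upstream tiles reached 32.9% in liver, 66.1% in brain and 55.5% in heart. It was lower in liver than in brain by the rule but not than in heart, where the difference was -22.6 percentage points (SE 1.95, adjusted p = 3.7e-10). With the window cut to 1000 bp, which leaves the 2 tiles nearest to the start, the same differences were -56.2 and -46.4 percentage points.

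The body of Fga, over 12 tiles, ran from 24.8% to 33.8% in liver (median 28.9%), from 72.1% to 81.3% in brain (median 76.5%) and from 73.2% to 75.9% in heart (median 74.1%). Liver lay below all other libraries, by -47.4 percentage points against brain (SE 1.23, adjusted p = 5.9e-20) and -45.2 against heart (SE 1.23, adjusted p = 1.8e-19). The exceptions were at the end of the gene: the tile 6897 bp after the start had 26.2% in liver, 42.8% in brain and 35.3% in heart, and that at 7097 bp had 60.8%, 50.7% and 50.6%. The 2 upstream tiles of Fga, 4902 and 4802 bp before its start, were nearly as low in liver as the body, with means of 22.0% and 12.9%, against 82.1% and 50.6% in brain and 79.8% and 44.3% in heart.

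**Figure D3:**
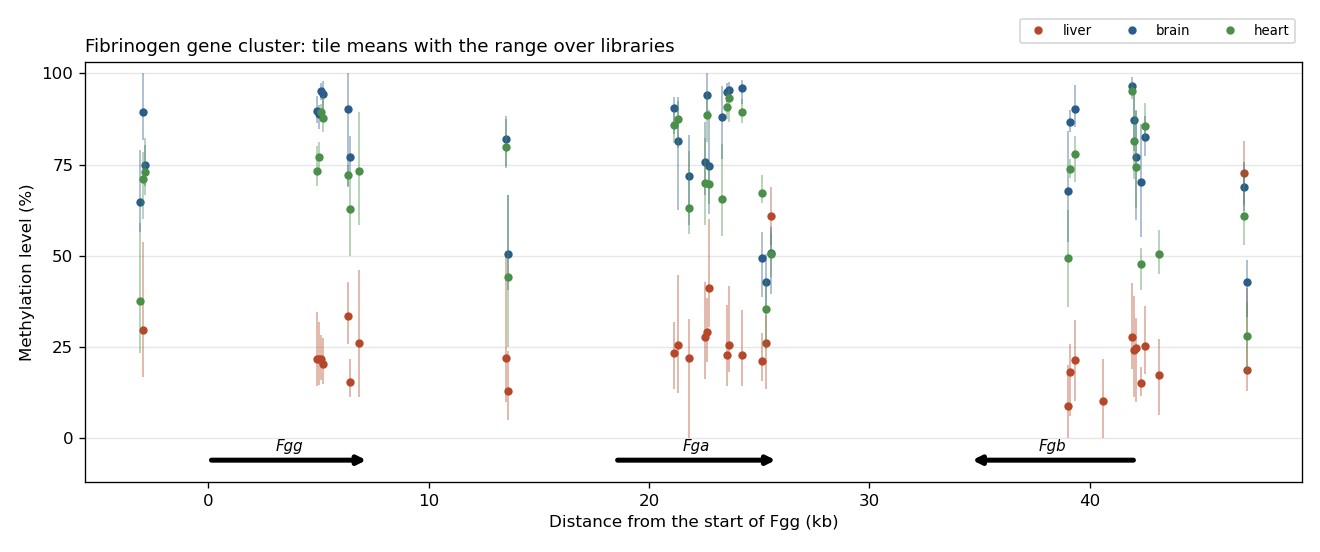
Methylation level in percent of each tile along the fibrinogen cluster against the distance from the start of Fgg in kb, with points at tissue means, bars from the lowest to the highest library and arrows for the genes. Liver means lie between 8.88% and 41.2% in all tiles but those at the end of Fga and far upstream of Fgb, where they reach 60.8% and 72.7%.

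F2 encodes prothrombin, the zymogen of thrombin, which cuts fibrinogen. It lies on chromosome 2 at 91625320 to 91636457 (minus strand). Lower methylation in liver than in both other tissues was called in 4 of its 7 upstream tiles and 6 of its 10 body tiles. The body level ran from 46.8% to 52.6% in liver (median 48.4%), from 81.1% to 84.8% in brain (median 82.8%) and from 75.8% to 80.0% in heart (median 77.3%). The groups did not overlap, and the differences were -34.5 percentage points against brain (SE 0.80, adjusted p = 1.0e-20) and -28.9 against heart (SE 0.80, adjusted p = 2.5e-19). Without the first 1000 bp of the body they were -27.1 and -22.2, and the call against heart ended.

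The body mean of F2 hides a division into low and high stretches. From 806 to 3206 bp after the start the 5 liver means lay between 9.37% and 28.5%, and the intronic tile printed above, at 1006 bp, ran from 20% to 35.8% in liver (median 28.1%), from 84.9% to 94.7% in brain (median 92.1%) and from 84.0% to 93.1% in heart (median 90.1%). The differences in that tile were -62.9 percentage points against brain (SE 2.84, adjusted p = 9.6e-16) and -60.5 against heart (SE 2.84, adjusted p = 3.3e-15). From 6206 to 8206 bp, 4 tiles were at 83.9% to 93.5% in liver, and at 9706 bp liver was low again at 29.4% against 88.5% in brain and 82.5% in heart. Upstream, the tile 2293 bp before the start had 18.1% in liver, 71.5% in brain and 81.8% in heart, while tiles 3893 to 4193 bp before it were at 76.0% to 96.2% in liver. The mean over the upstream tiles reached 50.8% in liver, 75.3% in brain and 70.5% in heart. Its differences of -24.6 (SE 1.95, adjusted p = 8.9e-11) and -19.7 percentage points (SE 1.95, adjusted p = 4.1e-09) were below the minimum size of 25. With the median of the tiles they were -32.3 and -27.9, both past that size.

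F7 and F10 lie one behind the other on chromosome 8, F7 at 13026034 to 13035805 and F10 at 13037308 to 13056676 (both plus strand). F7 encodes factor VII, which starts the cascade together with tissue factor. F10 encodes factor X, the zymogen of the protease that turns prothrombin into thrombin. In both genes the tiles called lower in liver lay next to the start and within the first few kb.

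At F7, the 2 upstream tiles together ran from 4.95% to 20.7% in liver (median 16.9%), from 56.2% to 68.1% in brain (median 61.2%) and from 51.1% to 63.4% in heart (median 57.2%). Liver stood apart, with differences of -45.6 percentage points against brain (SE 2.17, adjusted p = 5.3e-15) and -41.2 against heart (SE 2.17, adjusted p = 4.4e-14). These tiles lie in the promoter stretch printed above, and the one 183 bp before the start had 21.8% in liver, 85.3% in brain and 80.7% in heart. The tile at 16 bp after the start had 8.81% in liver, 32.7% in brain and 27.4% in heart, differences below the minimum size, whereas its neighbour at 116 bp had 24.3%, 70.2% and 52.0% and was called lower in liver than in both. The intronic tile at 1516 bp had 21.6% in liver, 80.3% in brain and 66.5% in heart, and only 100 bp further on liver was at 81.6%. From 4616 bp on, liver means lay between 71.6% and 97.1%. For the body as a whole, the levels of 63.5%, 73.1% and 67% gave no call. The difference of -9.61 percentage points against brain turned to 5.02 when the median of the tiles replaced their mean. That of -3.54 against heart turned to 8.87 with the median and to 2.25 without the first 1000 bp.

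The window upstream of F10 had no called difference, at 90.2% in liver, 92.2% in brain and 87.5% in heart. Some of its tiles lay in the end of F7, and the nearest was 1357 bp before the start of F10. From 542 to 2942 bp after the start, all 9 tiles were lower in liver than in brain, with liver means of 12.7% to 47.6%, and 7 of them were also lower than in heart. Of the tile printed above, at 2242 bp and touching a coding exon, the liver libraries ran from 14.8% to 35.6% (median 19.2%), the brain libraries from 86.4% to 91.3% (median 89.6%) and the heart libraries from 83.3% to 95.3% (median 87.2%). There was no overlap, and the differences were -67.9 percentage points (SE 2.89, adjusted p = 3.4e-16) and -66.6 (SE 2.89, adjusted p = 8.2e-16). The tile at 3042 bp was low in all tissues, at 32.6% in liver, 42.6% in brain and 29.4% in heart. A further tile at 4342 bp had 37.9% in liver, 87.2% in brain and 77.6% in heart, after 4 tiles from 3842 to 4142 bp at 78.0% to 91.9% in liver. From 7042 bp to the end, liver means were 83.0% to 94.7%. Over the whole body the levels were 59.1%, 74.9% and 71.6%, and the differences of -15.8 and -12.6 percentage points were not called. With the median of the tiles they were -5.79 and -1.31.

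F12 encodes factor XII, which starts the contact pathway of clotting, and lies on chromosome 13 at 55417958 to 55426804 (minus strand). Its body held both tiles with less and tiles with more methylation in liver, and 4 of the 5 member tiles higher in liver than in both other tissues were here. Near the start, the intronic tile at 653 bp ran from 11.1% to 29.3% in liver (median 21.2%), from 82.9% to 93.6% in brain (median 90.7%) and from 59.4% to 87.6% in heart (median 77.1%). Here liver was lower, as in most members, by -68.9 percentage points against brain (SE 3.25, adjusted p = 2.2e-15) and -55.2 against heart (SE 3.25, adjusted p = 2.3e-13). The tile at 853 bp was low in liver (27.2%) and in heart (38.1%) but not in brain (78.6%).

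Between 5453 and 5953 bp after the start of F12, 4 tiles that touch coding exons had the opposite order. The tile printed above, at 5553 bp, ran from 52.6% to 89.2% in liver (median 67.9%), from 5.7% to 10.4% in brain (median 7.4%) and from 1.5% to 3.5% in heart (median 2.7%). No liver library overlapped another tissue, and the differences were 61.0 percentage points against brain (SE 3.64, adjusted p = 2.1e-13) and 66.1 against heart (SE 3.64, adjusted p = 6.5e-14). Its neighbour at 5453 bp had 60.1% ± 4.84 in liver (SD, n = 12), 6.72% ± 4.0 in brain (SD, n = 6) and 3.50% ± 2.56 in heart (SD, n = 6). At 5853 and 5953 bp liver had 64.9% and 54.0%, against 37.9% and 16.7% in brain and 20.4% and 7.08% in heart. A further 4 body tiles of F12 were higher in liver than in heart only. The last 2 tiles, 8553 and 8653 bp after the start, were between 1.05% and 2.40% in all tissues.

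With low and high stretches together, the body mean of F12 reached 61.2% in liver, 54.1% in brain and 42.3% in heart, and the differences of 7.07 and 18.9 percentage points were below the minimum. Without the first 1000 bp they were 15.5 and 25.4, and the body was then called higher in liver than in heart. The 2 upstream tiles of F12 in all tables had no call, at 89.8%, 88.2% and 86.9%. Another 2, at 2546 and 2646 bp before the start, were in the brain and heart tables only, with 45.8% and 42.3% in brain and 25.3% and 15.8% in heart.

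Serpinc1 and Proc encode inhibitors of the cascade. Serpinc1 makes antithrombin, which blocks thrombin and activated factor X, and lies on chromosome 1 at 160978583 to 161002540 (plus strand). Lower methylation in liver than in both tissues was called in 9 of its 18 body tiles. The body ran from 49.7% to 55.9% in liver (median 51.8%), from 84.0% to 89.0% in brain (median 85.05%) and from 82.9% to 85.3% in heart (median 84.6%). Liver was lower in each library, by -33.5 percentage points against brain (SE 0.80, adjusted p = 1.6e-20) and -32.2 against heart (SE 0.80, adjusted p = 4.2e-20).

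The low tiles of Serpinc1 came in groups: 3 at 2167 to 2367 bp after the start with liver means of 15.8% to 19.1%, 4 at 10367 to 10767 bp with 19.4% to 30.9%, and single tiles at 12867 bp (19%) and 18867 bp (49.5%). Brain and heart were at 67.8% to 98.7% in these tiles. Of the tile printed above, at 2267 bp in an intron, the liver libraries ran from 7.3% to 21.7% (median 17.9%), the brain libraries from 76.8% to 95.3% (median 88.2%) and the heart libraries from 80.8% to 84.7% (median 81.5%). The gap between liver and the other tissues was wider than the spread of any of them. The differences were -70.7 percentage points (SE 2.74, adjusted p = 6.6e-17) and -65.2 (SE 2.74, adjusted p = 4.8e-16). From 20467 bp on, the tissues lay close together, at 81.9% to 97.9%. The tile at 12767 bp was low in all, at 12.3% in liver, 24.7% in brain and 22.4% in heart.

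Proc makes protein C, which when activated cuts short the cascade, and lies on chromosome 18 at 32123126 to 32139570 (minus strand). Only 6 of its 12 body tiles were in all tables. The intronic tile 1819 bp after the start ran from 20% to 38.7% in liver (median 29.1%), from 92.3% to 100% in brain (median 98.8%) and from 81.8% to 100% in heart (median 95.9%). Liver was lower by -68.9 percentage points against brain (SE 3.03, adjusted p = 6.0e-16) and -65.6 against heart (SE 3.03, adjusted p = 2.5e-15), without overlap. The tile at 1619 bp, which is not in the heart table, had 17.8% in liver and 91.3% in brain. Farther in, the order turned: at 6419 bp, touching a coding exon, liver was at 78.9% ± 5.31 (SD, n = 12), above brain at 49.9% ± 5.78 (SD, n = 6) and heart at 44.2% ± 7.85 (SD, n = 6). The body mean over the 6 tiles, 67.8% in liver, 69.9% in brain and 58.3% in heart, gave no call, and the sign of liver minus brain depended on the tiles used: it was -2.09 percentage points with the mean, 8.43 with the median of the tiles and -17.3 with all tiles of each table. The sign of liver minus heart also turned, from 9.52 with the mean and 21.9 with the median to -5.23 with all tiles of each table.

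Plg encodes plasminogen, the zymogen of the fibrin-dissolving protease plasmin, and lies on chromosome 17 at 12378609 to 12419384 (plus strand). It was the member with the smallest share of tiles lower in liver apart from F12, at 1 of 14. That tile, 25941 bp after the start in an intron and with a single CpG, ran from 20% to 46.7% in liver (median 26.6%), from 50% to 70.0% in brain (median 62.1%) and from 70.5% to 83.0% in heart (median 77.5%). It lay apart in liver, by -30.4 percentage points against brain (SE 4.15, adjusted p = 9.7e-07) and -45.4 against heart (SE 4.15, adjusted p = 8.9e-10). The tiles nearest to the start, at 7641 and 7841 bp, were in the liver and brain tables only and were both lower in liver, at 27.2% and 27.9% against 60.5% and 88.8%. The body mean reached 74.9% in liver, 81.6% in brain and 80.2% in heart, with differences of -6.70 (SE 0.84, adjusted p = 1.8e-07) and -5.28 percentage points (SE 0.84, adjusted p = 4.3e-06), both under the minimum of 25.

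**Figure D4:**
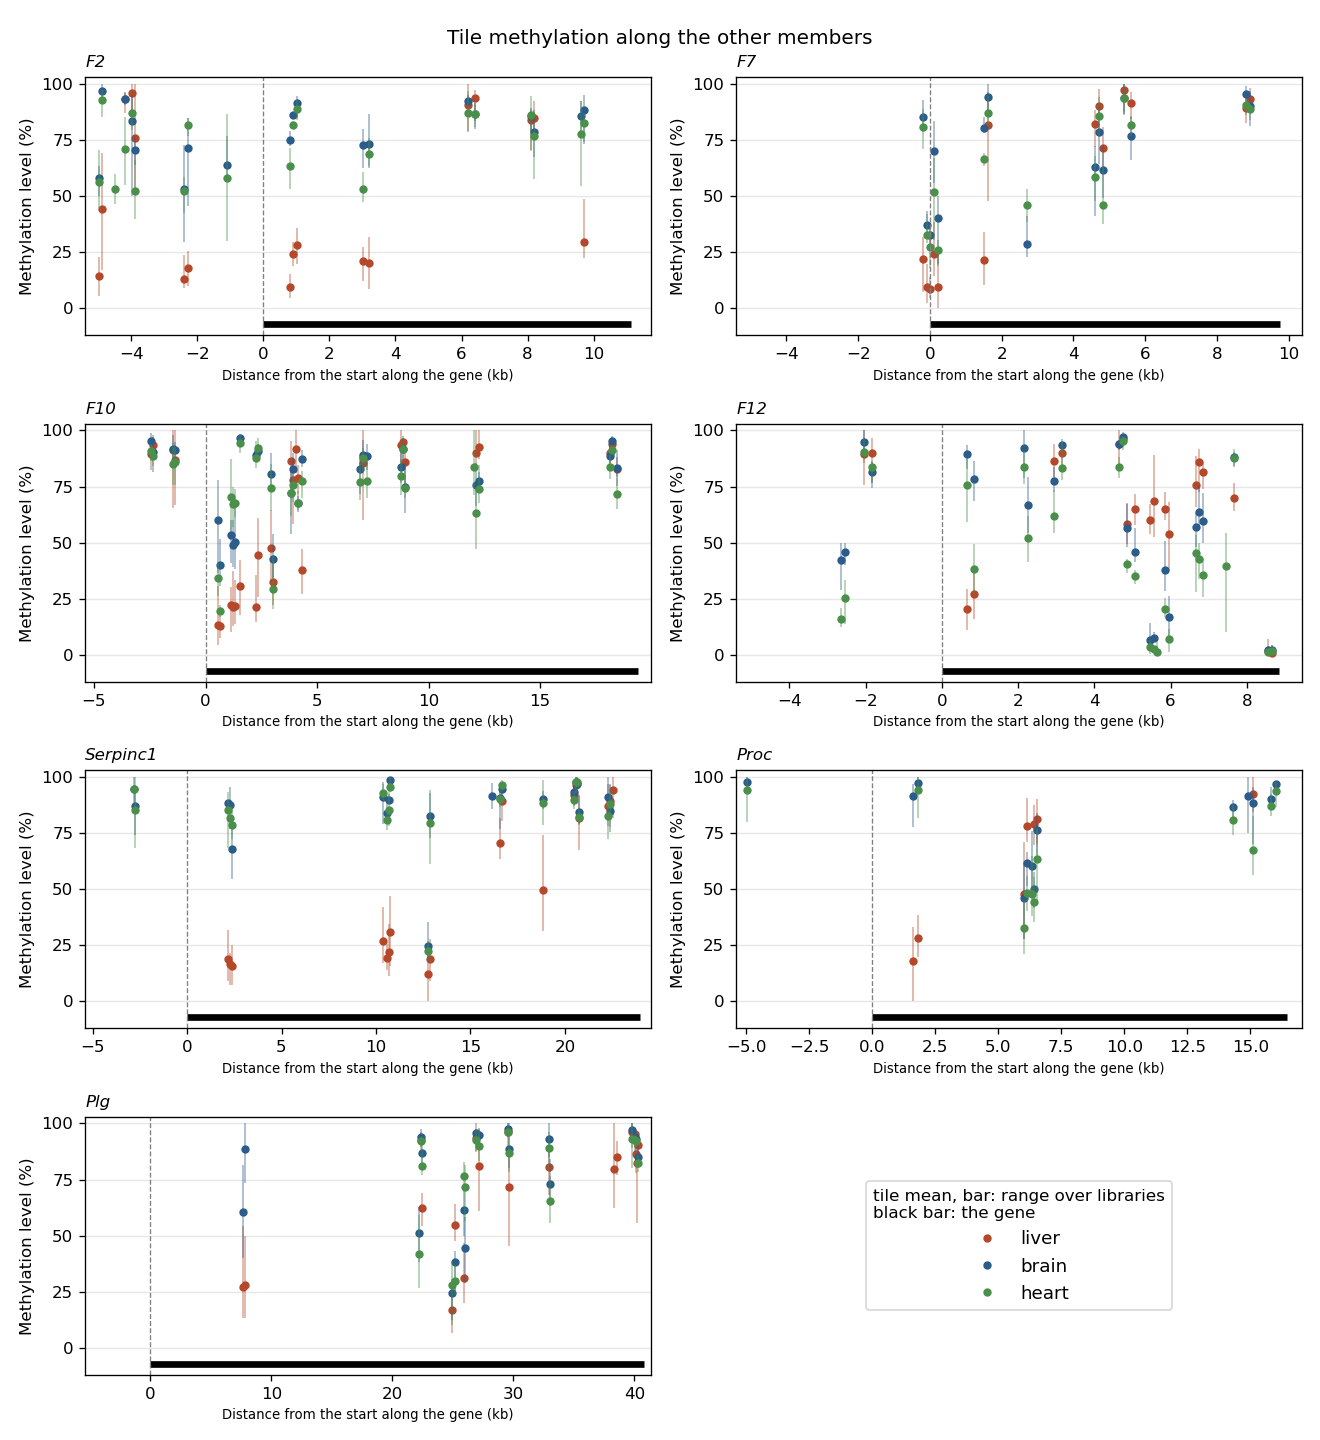
Methylation level in percent of each tile of F2, F7, F10, F12, Serpinc1, Proc and Plg against the distance from the start along the gene in kb, with points at tissue means, bars from the lowest to the highest library and a black bar for the gene. Liver falls far below brain and heart in stretches of F2, F7, F10 and Serpinc1 and rises above them 5453 to 5953 bp into F12.

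Brain and heart, neither of which is a main source of these proteins, differed by at least 25 points in few member tiles. Of the 145 tiles, 2 were called higher in brain (7.71% of all tiles) and none lower in brain (1.76% of all tiles). Both lay in bodies, where 7.01% of tiles of all genes were higher and 2.14% lower in brain, and of upstream tiles, 4.2% of which were higher and 0.982% lower in all genes, none was called. Also, no member region was called, against 2.14% of upstream windows and 1.23% of bodies of all genes higher in brain and 0.332% and 0.206% lower. For so few upstream tiles and regions, counts of 0 are near the background. The 2 tiles were that of F10 at 542 bp, with 59.9% in brain and 34.1% in heart, and that of F12 at 853 bp. Smaller differences were more common. With a minimum of 10 points, 32 body tiles, 3 upstream tiles, 3 bodies and 2 upstream regions differed between brain and heart. The shares of all tiles and all genes at 10 points are not given, so whether these counts exceed the background was not tested. Brain was above heart in the mean of all 17 member regions, by 1.27 to 18.3 percentage points. Over all genes the median of brain minus heart was 1.39 percentage points in upstream windows and 2.84 in bodies. By tile it was 3.00 percentage points over all tiles.

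In the 60 tiles lower in liver than in both tissues the median was 22.1% for liver (8.88% to 49.5%), 86.5% in brain (49.0% to 98.7%) and 79.1% in heart (44.3% to 95.7%). The other 85 member tiles had medians of 83.9%, 82.9% and 76.8%, close to those of all tiles at 80.8%, 79.5% and 71.9%. Of the 60, 28 were intronic, 21 touched a coding exon, 1 touched a non-coding exon and 10 lay outside the gene. Their median number of CpGs was 2.5, against 3 in the other member tiles, and 14 of 60 and 21 of 85, respectively, held a single CpG. Soft-masked repeats made up at least 50 bases of 3 of the 60 tiles and of 13 of the 85.

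By position, the share of member tiles lower in liver than in both tissues was greatest just after the start. It was 10 of 20 (50%) in the windows upstream (the 2 tiles shared by F7 and F10 being counted in the body of F7), 23 of 30 (76.7%) from 0 to 2999 bp after the start, 16 of 34 (47.1%) from 3000 to 5999 bp, 4 of 26 (15.4%) from 6000 to 9999 bp and 7 of 35 (20%) beyond. These limits were set after the values were seen, the bins hold tiles of 7, 8, 7, 7 and 4 genes, and the farthest bins have few tiles of the short fibrinogen genes, so distance and gene cannot be told apart. The shares in tiles of all genes at these distances are not given, so whether the pattern is particular to the members was not tested.

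RefSeq promoter entries of 300 bases (250 before and 50 after the start) were found for 8 of the 10 members, all but Proc and Plg. The site of MspI, the enzyme most used for RRBS, with the letters CCGG on both strands, was in 3 of these 8 (F7, Fga and Fgb) and in 53.5% of the 31396 autosomal entries, and tiles next to the start were read at F7 and Fgb. The letters TTGCNNAA, a form of the motif of C/EBP factors, were in the entries of Serpinc1, Fga and Fgb and in 10.9% of all entries, counting both strands. Searches for TATAAA (13.6% of all entries) and for CAAAGTCCA, a form of the HNF4 motif (0.487%), gave no match in the 8, which says only that these exact letters are not in these windows.

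Other genes of the pathway were counted by where their proteins are chiefly made. Of 15 further genes of hepatocyte-made proteins, 7 had upstream tiles, of which 5 were lower in liver than in brain (2.39% of all genes) and 4 of these also than in heart (1.51% of all genes). The largest such differences were upstream of Serpinf2, Klkb1 and Proz. Serpinf2, which makes the plasmin inhibitor alpha-2-antiplasmin, had only 1 upstream tile (25.7% in liver, 87.1% in brain, 89.7% in heart). Klkb1, plasma prekallikrein, had 4 tiles (26.5%, 83.3%, 67.2%), and Proz, protein Z, had 3 (15.7%, 63.8%, 50.5%). The others were Kng2, a kininogen, at 36.1%, 80.5% and 65.8% (2 tiles), and F11, factor XI, against brain only at 59.3%, 85.2% and 75.9% (8 tiles). Of their 15 bodies, 4 were lower in liver than in brain (Kng1, Serpina10, Serpind1 and Serpinf2, against 1.37% of all genes) and 3 of these also than in heart (all but Serpina10, against 0.813%). The body of F13b was higher in liver than in heart (82.4% against 54.4%, with 1.47% of all genes higher). The median difference over the 15 bodies was -0.97 percentage points against brain and 1.65 against heart, where all genes had 0.74 and 4.08. By tile, 36 of 198 were lower in liver than in both tissues (18.2%, against 2.46% of all tiles). Another 3, all in Habp2, were higher (1.52%), which is near the 2.06% of all tiles.

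The second list held 13 genes of the pathway whose proteins come chiefly from endothelium, blood cells or other cells, among them F3 (tissue factor), Thbd (thrombomodulin), Vwf (von Willebrand factor) and Plat (tissue plasminogen activator). Of these, 8 had upstream tiles and 12 had body tiles in all tables, and none of these regions was called in any comparison of tissues. With at most 2.58% of upstream windows and 1.47% of bodies of all genes called in a given direction, a count of 0 among so few regions is near the background. By tile, 4 of 279 were lower in liver than in both tissues (1.43%) and 7 were higher (2.51%), against 2.46% and 2.06% of all tiles. The region upstream of Thbd was at 6.61% in liver, 19.5% in brain and 4.21% in heart, and the body of Vwf, with 88 tiles, was at 74.5%, 73.4% and 69.0%.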

How the data were processed

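DNA methylation was measured by eRRBS in 24 libraries of 3 tissues. A company made and mapped the libraries by its own undisclosed procedure. The authors combined CpG calls in tiles of 100 bp with methylKit, kept tiles above a coverage minimum in all libraries of a tissue, and deposited for each tissue a table of tile positions and a methylation fraction between 0 and 1 per library. The submitters' processing notes name Bismark, methylKit and mm10. No read counts or coverage were in these tables, so the precision of a level could not be given and the count-based test of methylKit was not run. Column names give the tissue but no mouse or gender, so columns were grouped by tissue, and libraries of the same mouse could not be paired across tissues. Libraries came from separate mice within a tissue, and the mice had been chosen as littermate pairs. No identical pair of columns was found. Fractions were converted to percent.

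Tile positions matched mm10: 99.9% of shared tiles held a CpG, against 55.5% after a shift of 100000 bp. Genes were curated RefSeq genes (GRCm38.p6), from the outermost transcript start to the outermost end, and a region level was the mean of its tiles present in all 3 tables. Tissues were compared with limma 3.58.1 (R 4.3.3; 1 mean per tissue, eBayes with a mean-variance trend) over 758685 tiles, 18666 upstream windows and 20425 bodies, with Benjamini-Hochberg adjustment over all of them. Tiles in 2 tables were fitted with those of both tables. Differences were called at an adjusted p of at most 0.01 and at least 25 percentage points, after the study's thresholds. The fit was also run on simulated data, drawn independently for each library with the same spread in each tissue. These simulated data held no mice shared between tissues, and their outcome is not reported here. Alternatives were a logit scale, no trend, a minimum of 10 points, a window of 1000 bp, a body without its first 1000 bp, all tiles of the tables compared, tile medians and an exact permutation test of regions. Members, lists and tests were chosen with earlier results of these data known. The tiles named with all values were, for each member and region, that with the largest difference between liver and the mean of brain and heart and that nearest to the start; other tiles were named after their values were seen. No sequence of chromosome 18 was printed.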

Additional observations from a re-analysis of the deposited data

Results flagged for a closer look

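In groups of 6 libraries, a highest or lowest value was set apart when its gap to the nearest library was large for the range of the group (Dixon's test). Of 94 groups of brain or heart libraries tested over member regions and named tiles, 7 were set apart, and chance gives about 5%. In the body of Fgb, 1 heart library was at 82.2% with the next at 74.8%, and in the body of Serpinc1, 1 brain library was at 89.0% with the next at 85.6%. Both lie on the far side from liver. Among tiles, the lowest brain library of F2 at 1006 bp after the start was at 84.9% (next 91.1%), and the highest heart library of F7 at 83 bp before the start was at 42.0% (next 33.8%). The lowest heart library of F12 at 1846 bp before the start was at 76.7% (next 83.1%). In Serpinc1, the lowest heart library at 2167 bp was at 68.3% (next 85.1%), and the highest at 2267 bp was at 84.7% (next 81.7%). No liver group was tested, since groups of over 10 libraries are outside this rule.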

How the results depend on the processing

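Of 110 recomputed counts of member tiles or regions, 95 stayed within 1.5 times the value reported, no called difference changed sign, and the logit scale, the fit without a trend and the exact permutation test moved none beyond that. With an upstream window of 1000 bp, 2 regions and 4 tiles were lower in liver than in brain and 2 regions and 3 tiles lower than in heart. Only 2 regions and 4 tiles were left to test, and the shares of all genes in that window are not given. With a minimum of 10 points, 5 upstream regions were lower in liver than in heart, 3 upstream tiles higher than in heart, 1 body (F12) higher than in heart, 20 body tiles higher than in brain and 26 higher than in heart. Brain and heart then differed in 2 upstream regions, 3 bodies, 3 upstream tiles and 32 body tiles. For none of these counts at 10 points is the share of all tiles or all genes given, so they describe no trait of the members. With all tiles of the 2 tables compared, 2 upstream tiles differed between brain and heart. Without the first 1000 bp of the body, 1 body (F12) was higher in liver than in heart and 0 body tiles differed between brain and heart. Among 276 recomputed levels and differences, 87 moved by more than the spread between libraries. No paired analysis was possible because the columns carry no mouse number. Read depth is unknown, so tiles with few reads could not be told from deeply covered ones, and tiles with a single CpG rest on 1 position.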

Other observations

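Outside the pathway, 18644 genes that share no tile with a member were ranked by how close their upstream level over the 24 libraries lay to the median profile of the members (36.4% in liver, 75.3% in brain and 69.8% in heart). The closest was Mirt2, a long non-coding RNA gene, with a mean absolute difference of 4.85 percentage points over 6 tiles and means of 33.3%, 78.1% and 73.4%. Next came Gm19276, a predicted gene, at 5.33 percentage points over 2 tiles (39.9%, 76.3% and 73.2%), and Tulp2, a tubby-like protein gene, at 5.49 over 5 tiles (33.2%, 69.2% and 66.9%). With this many genes compared, some will lie close to any profile, and the ranking is a description.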
